A study of Homo sapiens with 9 samples.

Results

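The 10 noncoding snoRNA host genes GAS5, SNHG1, SNHG3, SNHG5, SNHG6, SNHG7, SNHG8, SNHG12, SNHG15 and SNHG16 were taken by symbol from a table of 58336 genes, and all 10 were listed in it. The table comes from precision run-on sequencing (PRO-seq), which maps RNA polymerases caught in the act of transcription, in MEL624, a human melanoma cell line. Its 9 libraries formed 3 groups of 3 replicates, not said to be separate cultures: knockout clone PCIF1 KO1, knockout clone PCIF1 KO2, and control cells, wild type for PCIF1 and carrying a random sgRNA. Each knockout line is a clone of MEL624 cells, so what is particular to a clone and what follows from the loss of PCIF1 cannot be told apart for values seen in 1 clone. Both clones are read against the same control group. For values shared by both clones, what is particular to the control cells and what follows from the loss of PCIF1 cannot be told apart either. Every library was made from 1000000 cells with 40000 Drosophila S2 cells added.

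A snoRNA host gene carries small nucleolar RNAs in its introns. Splicing releases the intron, exonucleases trim it back to the protein-covered snoRNA, and the snoRNA then guides modification or cleavage of ribosomal RNA: box C/D snoRNAs guide 2'-O-methylation and box H/ACA snoRNAs guide pseudouridylation. The spliced transcripts of these hosts are classed as noncoding, many are degraded by nonsense-mediated decay when translated, and several begin with a terminal oligopyrimidine (TOP) tract, a cytidine followed by further pyrimidines, as ribosomal protein mRNAs do. PCIF1 methylates an adenosine next to the cap, so the start base of a transcript decides whether it can be a substrate.

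The table gives 1 mean per group. The values therefore have no replicate error, no p-value is given, and no difference could be set against the variation among replicates. Fewer cells with an active gene and less transcription per cell cannot be told apart in such libraries. Levels are mean normalized counts (the deposited value times gene length in kb), and comparisons between genes use the deposited value per kb. A floor of 10 counts, averaged over the groups, left 17149 genes for comparison, the 10 hosts among them. The depth of single libraries is not given. PCIF1 itself had 269.6 counts in PCIF1 KO1, 239.3 in PCIF1 KO2 and 239.5 in control, which does not check the labels because an edited gene can still be transcribed. Of 6 melanocyte lineage genes, MITF and PMEL passed the floor and SOX10, TYR, DCT and MLANA did not, with TYR listed at 0 in every group. PMEL had 21.3 counts in PCIF1 KO1, 23.8 in PCIF1 KO2 and 48.4 in control, and MITF had 142.0 counts in PCIF1 KO1, 259.2 in PCIF1 KO2 and 168.5 in control. The log2 ratios were -1.15 in PCIF1 KO1 and -0.997 in PCIF1 KO2 for PMEL, and -0.25 in PCIF1 KO1 and 0.62 in PCIF1 KO2 for MITF, and in PCIF1 KO2 both were further from 0 than that of any of the 10 hosts; their part in the host results was not tested. The keratinocyte genes KRT5 and KRT14 and the blood gene PTPRC were at most 1.1 counts, and the fibroblast gene COL1A1 had 27.8 in PCIF1 KO1, 18.4 in PCIF1 KO2 and 18.0 in control. The other fibroblast gene read, COL3A1, was below the floor, with 1.4 in PCIF1 KO1, 2.1 in PCIF1 KO2 and 0.75 in control.

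The hosts had some of the highest values per kb in the table, read beside genes of any length. Per kb they had a median of 1048 in PCIF1 KO1, 1179 in PCIF1 KO2 and 1134 in control, against 30.0 in PCIF1 KO1, 30.1 in PCIF1 KO2 and 30.0 in control over all compared genes and 33.3 in PCIF1 KO1, 33.6 in PCIF1 KO2 and 32.8 in control over compared long noncoding genes. Together they held 0.876% in PCIF1 KO1, 0.954% in PCIF1 KO2 and 0.867% in control of all normalized counts. In control the level per kb of the lowest host, SNHG15, exceeded that of 96.4% of compared genes.

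GAS5, named for its accumulation in growth-arrested cells, and SNHG1, a host of SNORD22 and SNORD25 to SNORD30, had the highest levels per kb in every group: GAS5 had 2018.7 in PCIF1 KO1, 2520.0 in PCIF1 KO2 and 1983.7 in control, and SNHG1 had 2060.7 in PCIF1 KO1, 2040.5 in PCIF1 KO2 and 1640.0 in control. SNHG15, the host of SNORA9, was lowest throughout at 329.7 in PCIF1 KO1, 315.2 in PCIF1 KO2 and 282.7 in control. The highest host exceeded the lowest 6.25-fold in PCIF1 KO1, 8.00-fold in PCIF1 KO2 and 7.02-fold in control. In control the order from the top was GAS5, SNHG1, SNHG8, SNHG12, SNHG3, SNHG5, SNHG7, SNHG6, SNHG16 and SNHG15. SNHG5 stood at place 6 in PCIF1 KO1 and control and at place 3 in PCIF1 KO2, and SNHG7 at place 9 in both clones and place 7 in control. Which neighbours in these orders differ beyond their spread cannot be said from group means. Levels per kb also depend on the gene model: the table gives SNHG3 a length of 4088 bases, equal to its merged exons in GENCODE release 44, but SNHG8 a length of 923 bases and SNHG5 of 2794, where that release has 6614 and 12604.

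**Figure D1:**
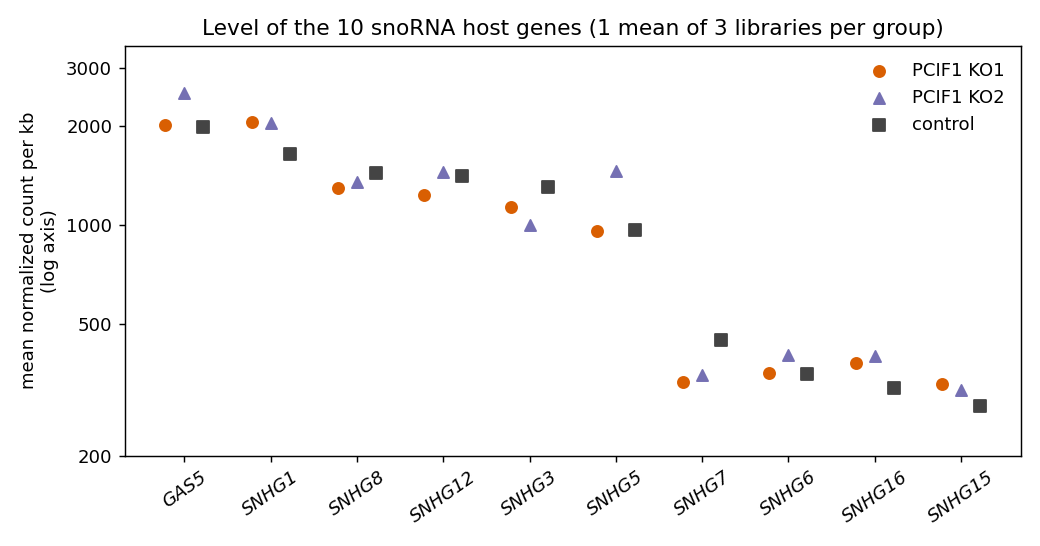
Mean normalized count per kb (log axis) of each host gene in PCIF1 KO1 (circles), PCIF1 KO2 (triangles) and control (squares), ordered by the control level; each point is the deposited mean of 3 libraries. SNHG5 had 960.5 per kb in PCIF1 KO1, 1457.5 in PCIF1 KO2 and 964.3 in control, and GAS5 and SNHG1 were the 2 highest hosts in all groups.

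Start sites are shown because the base at the start bears on PCIF1 and on the TOP class. In the canonical transcripts of GENCODE release 44, read on hg38, 5 of the 10 hosts began with C, 4 with G and 1, SNHG3, with A. In 3 of the 5 the C opened a run of at least 4 pyrimidines. The share of such runs over all compared genes was not taken. Over 17033 compared genes the canonical start was A in 43.8%, C in 12.8% and G in 39.4%, and of 80 ribosomal protein genes it was C in 81.3%. RefSeq (GRCh38.p14) had start windows for 8 hosts, of which 5 began with C, 2 with G and 1 with A. The annotations often disagree on the base: RefSeq starts SNHG5 15 bases downstream of the GENCODE start and SNHG1 37 bases downstream, each time at a C where GENCODE has a G. For GAS5 the offset along the strand was -1056 bases, with an A in RefSeq and a C in GENCODE, and for SNHG3 it was -37 bases, with a G in RefSeq and the A in GENCODE. Of 347 annotated transcripts of the 10 genes, 139 began with C, 144 with G, 39 with T and 25 with A. The table gives 1 value a gene, which does not say which start was used. The windows shown run from 20 bases before to 20 bases after the start, on the gene's strand, with the start base in capitals and, where it is C, also any pyrimidines that follow it without a break. Both annotations are shown where their start bases differ. The windows of SNHG8 and SNHG15, where no pyrimidine follows the starting C, are not shown. SNHG12 is shown at its RefSeq start, 1113 bases downstream of its GENCODE start, a C that opens a run of 5 pyrimidines.
GAS5 (GENCODE, chr1:173867969-173868009, minus strand): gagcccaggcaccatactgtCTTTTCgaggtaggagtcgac
GAS5 (RefSeq, chr1:173869025-173869065, minus strand): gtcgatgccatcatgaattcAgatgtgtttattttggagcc
SNHG1 (GENCODE, chr11:62855902-62855942, minus strand): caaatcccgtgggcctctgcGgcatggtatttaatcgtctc
SNHG1 (RefSeq, chr11:62855865-62855905, minus strand): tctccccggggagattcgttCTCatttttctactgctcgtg
SNHG5 (GENCODE, chr6:85678728-85678768, minus strand): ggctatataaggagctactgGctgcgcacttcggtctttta
SNHG5 (RefSeq, chr6:85678713-85678753, minus strand): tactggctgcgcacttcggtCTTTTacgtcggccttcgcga
SNHG7 (both, chr9:136728164-136728204, minus strand): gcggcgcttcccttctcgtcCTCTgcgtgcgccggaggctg
SNHG12 (RefSeq, chr1:28581853-28581893, minus strand): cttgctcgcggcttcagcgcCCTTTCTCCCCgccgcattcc
SNHG16 (RefSeq, chr17:76557744-76557784, plus strand): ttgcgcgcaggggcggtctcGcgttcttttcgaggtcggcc
SNHG3 (RefSeq, chr1:28505923-28505963, plus strand): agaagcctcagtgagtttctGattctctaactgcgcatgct
SNHG3 (GENCODE, chr1:28505960-28506000, plus strand): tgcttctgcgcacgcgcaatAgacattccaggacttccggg

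Set against control, no host was 2-fold off in either clone. In PCIF1 KO1, 0 of 10 were at least 1.5-fold off, against 11.9% of compared genes in either direction (6.93% higher and 4.94% lower), and in PCIF1 KO2 1 of 10, SNHG5, was at least 1.5-fold higher and 0 were that much lower, against 9.76% and 7.23%. Past 2-fold the shares of compared genes were 3.59% for PCIF1 KO1 and 5.23% for PCIF1 KO2. To compare genes of like count, the hosts were also read against the 2064 genes averaging 400 counts or more, a floor set after the data were seen so as to hold all 10. Of those, 4.41% were at least 1.5-fold off in PCIF1 KO1, and 5.23% were at least 1.5-fold higher in PCIF1 KO2. A count of 0 or 1 in 10 is near these shares. The median log2 ratio of the hosts was 0.0010 in PCIF1 KO1, with 5 above control and 5 below, and 0.17 in PCIF1 KO2, with 7 above and 3 below; over all compared genes it was -0.0048 in PCIF1 KO1 and -0.0039 in PCIF1 KO2. The clones share the control mean.

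**Figure D2:**
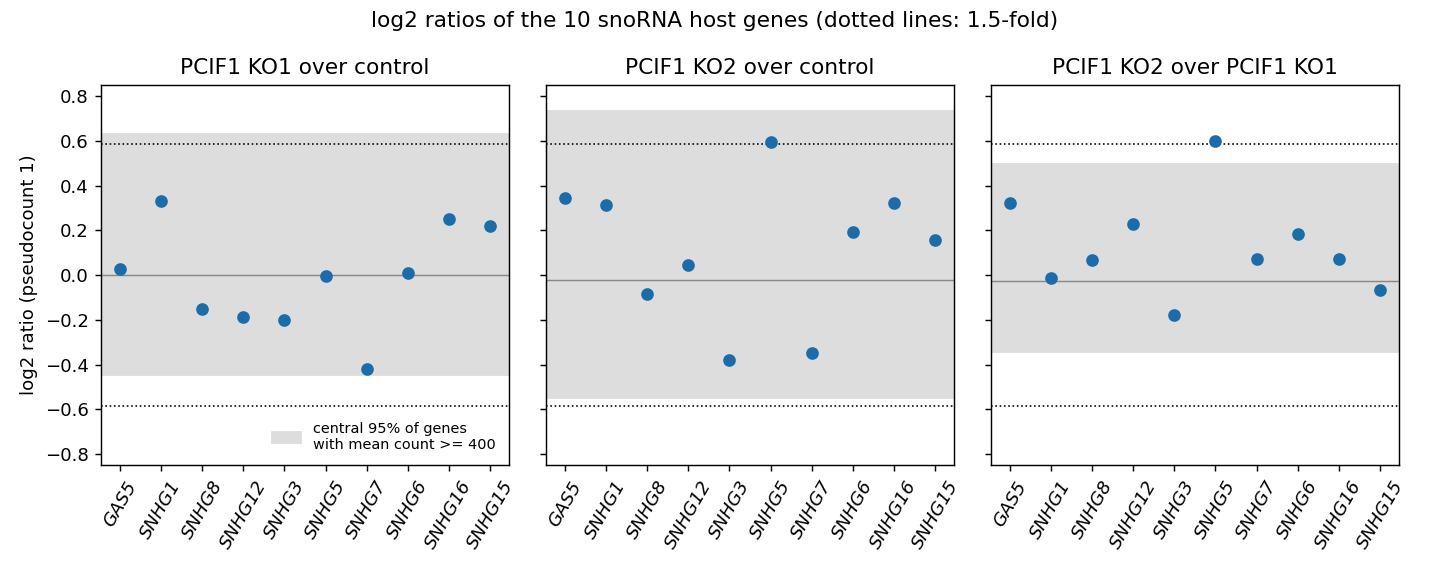
The log2 ratio of each host gene (points, with 1 added to each count) in PCIF1 KO1 over control, PCIF1 KO2 over control and PCIF1 KO2 over PCIF1 KO1; the grey band is the central 95% of the 2064 genes averaging 400 counts or more, the grey line their median, and dotted lines mark 1.5-fold. SNHG5 lay at -0.01, at 0.60 and at 0.60, outside the band in the third comparison only.

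Among the hosts of box C/D snoRNAs, SNHG5 differed most from control, except under quantile normalization. SNHG5 (ENSG00000203875; chromosome 6, 85650491 to 85678932, minus strand), the host of SNORD50 RNAs, had 2683.6 counts in PCIF1 KO1, 4072.1 in PCIF1 KO2 and 2694.3 in control. The clones thus stood apart, PCIF1 KO1 with control and PCIF1 KO2 above both, by 1.51-fold against control and 1.52-fold against PCIF1 KO1. Of the 2064 genes of like count, 98.4% had a lower ratio of PCIF1 KO2 to PCIF1 KO1, and 1.7% were at least 1.5-fold higher in that comparison (4.37% of all compared genes), as was 1 of the 10 hosts. Under quantile normalization GAS5 stood at 0.61 and SNHG5 at 0.60 on the log2 scale in PCIF1 KO2 over control, and in PCIF1 KO2 over PCIF1 KO1 SNHG5, at 0.58, was no longer 1.5-fold higher while GAS5, at 0.61, was.

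GAS5 (ENSG00000234741; chromosome 1, 173858559 to 173868882, minus strand) had 7329.8 counts in PCIF1 KO1, 9150.0 in PCIF1 KO2 and 7202.9 in control. Its pattern had the same shape at a smaller size, 1.8% above control in PCIF1 KO1 and 27.0% above it in PCIF1 KO2, log2 ratios of 0.03 in PCIF1 KO1 and 0.35 in PCIF1 KO2. SNHG6 (ENSG00000245910; chromosome 8, 66920561 to 66926398, minus strand), the host of SNORD87 and the lowest of the 10 by count, had 444.5 counts in PCIF1 KO1, 504.7 in PCIF1 KO2 and 442.1 in control, log2 ratios of 0.01 in PCIF1 KO1 and 0.19 in PCIF1 KO2.

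SNHG1 (ENSG00000255717; chromosome 11, 62851978 to 62855953, minus strand) was above control by a like amount in both clones. It had 7739.9 counts in PCIF1 KO1, 7664.1 in PCIF1 KO2 and 6159.8 in control, above control by 25.7% in PCIF1 KO1 and 24.4% in PCIF1 KO2. SNHG16 (ENSG00000163597; chromosome 17, 76557727 to 76670985, plus strand), the host of SNORD1A, SNORD1B and SNORD1C, had 2051.5 counts in PCIF1 KO1, 2153.5 in PCIF1 KO2 and 1723.8 in control, above control by 19.0% in PCIF1 KO1 and 24.9% in PCIF1 KO2. Of the genes of like count, 89.7% had a lower ratio than SNHG1 in PCIF1 KO1 and 83.6% in PCIF1 KO2, so ratios of this size were common.

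The hosts of box H/ACA snoRNAs held the lowest ratios. SNHG7 (ENSG00000233016; chromosome 9, 136721366 to 136728184, minus strand), the host of SNORA17A and SNORA17B, had 1454.9 counts in PCIF1 KO1, 1528.1 in PCIF1 KO2 and 1944.3 in control, log2 ratios of -0.42 in PCIF1 KO1 and -0.35 in PCIF1 KO2. Of the genes of like count, 3.10% had a lower ratio in PCIF1 KO1 and 10.5% in PCIF1 KO2. SNHG3 (ENSG00000242125; chromosome 1, 28505980 to 28510892, plus strand), the host of SNORA73A and SNORA73B, which take part in ribosomal RNA cleavage, had 4641.5 counts in PCIF1 KO1, 4095.1 in PCIF1 KO2 and 5332.2 in control, log2 ratios of -0.20 in PCIF1 KO1 and -0.38 in PCIF1 KO2.

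SNHG8 (ENSG00000269893; chromosome 4, 118278703 to 118285316, plus strand), which holds SNORA24, had 1194.8 counts in PCIF1 KO1, 1252.3 in PCIF1 KO2 and 1327.1 in control. Its log2 ratios were -0.15 in PCIF1 KO1 and -0.08 in PCIF1 KO2. SNHG15 (ENSG00000232956; chromosome 7, 44983019 to 44986961, minus strand) was the single host of this kind above control, with 1202.3 counts in PCIF1 KO1, 1149.4 in PCIF1 KO2 and 1031.1 in control and log2 ratios of 0.22 in PCIF1 KO1 and 0.16 in PCIF1 KO2. SNHG12 (ENSG00000197989; chromosome 1, 28578538 to 28583132, minus strand), which holds SNORD99 as well as SNORA61, SNORA44 and SNORA16A, had 4181.6 counts in PCIF1 KO1, 4901.2 in PCIF1 KO2 and 4755.3 in control, log2 ratios of -0.19 in PCIF1 KO1 and 0.04 in PCIF1 KO2.

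Grouped by the kind of snoRNA, a split made after the values were seen and with GAS5 placed by background knowledge, the 5 box C/D hosts had a median log2 ratio of 0.03 in PCIF1 KO1, with 4 above control, and 0.32 in PCIF1 KO2, with 5 above. The 4 box H/ACA hosts had medians of -0.18 in PCIF1 KO1 and -0.22 in PCIF1 KO2, with 1 above control in each clone. Other hosts were split in the same way. Among 20 other compared long noncoding genes with snoRNAs of 1 kind annotated inside them, 9 box C/D hosts had medians of -0.08 in PCIF1 KO1 and 0.02 in PCIF1 KO2 and 11 box H/ACA hosts 0.02 in PCIF1 KO1 and 0.11 in PCIF1 KO2. Among protein-coding hosts the medians were -0.01 in PCIF1 KO1 and -0.06 in PCIF1 KO2 for 58 box C/D hosts and -0.05 in PCIF1 KO1 and -0.08 in PCIF1 KO2 for 73 box H/ACA hosts. The box C/D median was thus the lower one among the other long noncoding hosts and the higher one among protein-coding hosts; no difference between the kinds was tested.

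The snoRNAs inside the hosts have entries of their own, and most of them were empty. Of 25 snoRNA entries annotated on the same strand inside 9 of the hosts, 21 were listed at 0 in all groups and 4 had counts: SNORD30 in SNHG1, SNORA73B in SNHG3, SNORD99 in SNHG12 and SNORD1B in SNHG16. No snoRNA inside GAS5 was analysed here. Emptiness went with position: of 22 entries that overlap an exon of their host in release 44, 21 were at 0, and of 3 that do not, 0 were. Over 464 snoRNA entries inside all compared protein-coding and long noncoding genes, 69.5% of 203 that overlap an exon were at 0, against 23.8% of 261 that do not. How reads that fall in both a snoRNA and a host exon were counted was not tested. The 4 counted snoRNAs follow, read from hg38 on their own strand.
SNORD99 (chr1:28578749-28578822, minus strand): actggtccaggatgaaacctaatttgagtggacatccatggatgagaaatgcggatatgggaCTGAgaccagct
SNORD1B (chr17:76561109-76561192, plus strand): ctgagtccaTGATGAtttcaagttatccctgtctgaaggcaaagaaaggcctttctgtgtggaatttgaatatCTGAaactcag
SNORD30 (chr11:62853663-62853732, minus strand): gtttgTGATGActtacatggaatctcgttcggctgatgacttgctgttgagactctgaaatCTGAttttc
SNORA73B (chr1:28508559-28508762, plus strand): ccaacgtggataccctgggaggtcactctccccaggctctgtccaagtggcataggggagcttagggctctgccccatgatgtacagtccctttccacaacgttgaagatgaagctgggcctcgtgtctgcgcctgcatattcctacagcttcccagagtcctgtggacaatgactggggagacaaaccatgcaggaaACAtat
Capitals mark the letters TGATGA of box C in the first 25 bases and CTGA of box D in the last 15 bases, searched on the snoRNA's strand, and for SNORA73B the ACA in the last 8 bases. Of 306 SNORD entries read in the same way, 66.7% hold the first and 86.9% the second.

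The counted snoRNAs differed from control by other amounts than their hosts, in the same direction in both clones for SNORD1B with SNHG16. SNORD99 had 401.9 counts in PCIF1 KO1, 773.4 in PCIF1 KO2 and 340.3 in control, 2.27-fold above control in PCIF1 KO2, where its host SNHG12 was 1.03-fold. SNORD1B had 87.5 counts in PCIF1 KO1, 119.9 in PCIF1 KO2 and 68.8 in control, 1.73-fold above control in PCIF1 KO2, where SNHG16 was 1.25-fold. SNORA73B had 584.9 counts in PCIF1 KO1, 696.6 in PCIF1 KO2 and 536.8 in control, above control in both clones, while SNHG3 was below it in both. SNORD30 had 67.5 counts in PCIF1 KO1, 79.1 in PCIF1 KO2 and 71.6 in control and lay within 1.10-fold of control, while SNHG1 was above it 1.26-fold in PCIF1 KO1 and 1.24-fold in PCIF1 KO2. All 4 were highest in PCIF1 KO2. That was shared with snoRNA entries at large: of 129 compared snoRNA and scaRNA genes, 48 (37.2%) were at least 1.5-fold higher in PCIF1 KO2, against 9.76% of all compared genes, with a median log2 ratio of 0.45, and 16 (12.4%) in PCIF1 KO1, against 6.93%, with a median of 0.08. Mature snoRNA carried into the libraries and nascent RNA cannot be told apart in these entries.

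**Figure D3:**
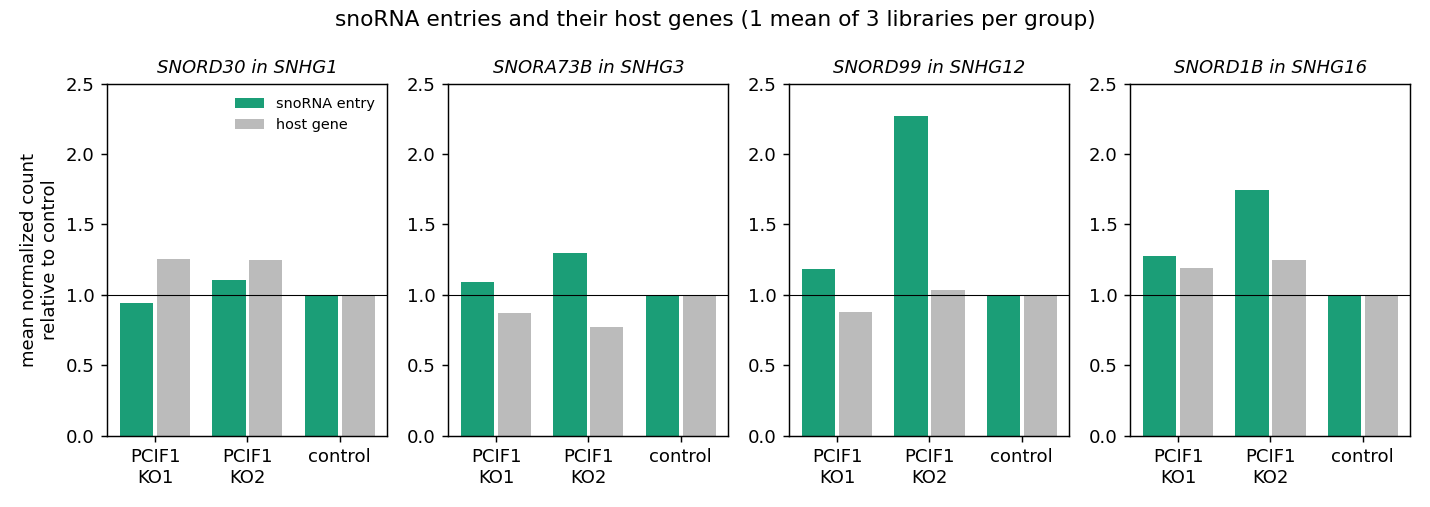
Mean normalized counts of the 4 counted snoRNA entries (green) and of their host genes (grey) in PCIF1 KO1, PCIF1 KO2 and control, each divided by its own control value. SNORD99 stood 2.27-fold above control in PCIF1 KO2 and SNHG12 1.03-fold; the bars carry no error because each value is 1 mean of 3 libraries.

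Neighbouring genes were read beside each host. For each host, the 5 compared genes nearest by gene midpoint on either side were taken, with snoRNA entries left out and other hosts kept. Around SNHG5 the median log2 ratio was 0.11 in PCIF1 KO1 and 0.31 in PCIF1 KO2, and SNHG5 lay above 8 of its 10 neighbours in PCIF1 KO2 over control and above 10 of 10 in PCIF1 KO2 over PCIF1 KO1. The nearest on the lower side, the pseudogene PKMP3, lies inside the annotated SNHG5 span and had 40.9 counts in PCIF1 KO1, 59.6 in PCIF1 KO2 and 31.9 in control. In release 44 it shares 715 exon bases with SNHG5. The deposited length of SNHG5 is 2794 bases, where that release has 12604, so whether the counted models of the pair overlap is not known. The nearest on the other side, ENSG00000272008, had 99.1 in PCIF1 KO1, 75.9 in PCIF1 KO2 and 53.5 in control.

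SNHG15 and SNHG16 stood above most of their neighbours, whose median ratios were below control in both clones. SNHG15 lay above 9 of 10 neighbours in each clone, and their medians were -0.11 in PCIF1 KO1 and -0.28 in PCIF1 KO2; the adjoining myosin gene MYO1G had 20.4 counts in PCIF1 KO1, 15.9 in PCIF1 KO2 and 25.4 in control and CCM2, a gene of vascular integrity, had 83.0 in PCIF1 KO1, 64.9 in PCIF1 KO2 and 99.6 in control. SNHG16 lay above 8 of its 10 neighbours in PCIF1 KO1 and 9 in PCIF1 KO2, with medians of -0.06 in PCIF1 KO1 and -0.13 in PCIF1 KO2. Those neighbours ranged from -0.54 to 0.86 in PCIF1 KO1 and from -0.41 to 0.80 in PCIF1 KO2. SNHG1 lay above 9 of 10 in each clone, with medians of 0.02 in PCIF1 KO1 and -0.06 in PCIF1 KO2. Its neighbour SLC3A2, the amino acid transporter heavy chain gene on the opposite strand, had 2030.2 counts in PCIF1 KO1, 2195.8 in PCIF1 KO2 and 1826.8 in control, and WDR74, a ribosome assembly gene, had 1772.1 in PCIF1 KO1, 1622.2 in PCIF1 KO2 and 1672.4 in control.

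For SNHG7 and SNHG3 the surroundings did not show the same direction in both clones. Around SNHG7 the medians were -0.16 in PCIF1 KO1 and 0.07 in PCIF1 KO2, and 2 of 10 neighbours were below SNHG7 in each clone. The adjoining gene DIPK1B, antisense to SNHG7, shares 1482 exon bases with it in release 44. DIPK1B had 37.7 counts in PCIF1 KO1, 55.8 in PCIF1 KO2 and 24.7 in control. Around SNHG3 the medians were -0.06 in PCIF1 KO1 and 0.14 in PCIF1 KO2, with 1 of 10 neighbours below it in PCIF1 KO1 and 2 in PCIF1 KO2; RCC1, the exchange factor gene for Ran that shares 242 exon bases with SNHG3 in release 44, had 714.7 counts in PCIF1 KO1, 709.0 in PCIF1 KO2 and 748.3 in control. SNHG12 lies in the same stretch of chromosome 1, so the neighbour sets of SNHG3 and SNHG12 overlap, and each holds the other host. Around SNHG12 the medians were 0.02 in PCIF1 KO1 and 0.07 in PCIF1 KO2, and the adjoining gene TRNAU1AP, which serves selenocysteine tRNA, had 240.6 counts in PCIF1 KO1, 236.5 in PCIF1 KO2 and 202.0 in control. On the other side TAF12, a TFIID subunit gene, had 274.4 counts in PCIF1 KO1, 315.9 in PCIF1 KO2 and 224.4 in control. Next to GAS5, ZBTB37 on the opposite strand had 211.0 counts in PCIF1 KO1, 211.6 in PCIF1 KO2 and 231.6 in control and the antisense gene GAS5-AS1 28.4 in PCIF1 KO1, 35.8 in PCIF1 KO2 and 23.0 in control. GAS5 lay above 3 of 10 neighbours in PCIF1 KO1 and 7 in PCIF1 KO2. SNHG6 sat in surroundings with medians of 0.24 in PCIF1 KO1 and 0.22 in PCIF1 KO2, above 1 of 10 neighbours in PCIF1 KO1 and 5 in PCIF1 KO2, and SNHG8 lay above 3 of 10 in each clone, with medians of 0.00 in PCIF1 KO1 and 0.09 in PCIF1 KO2. The protease gene PRSS12, antisense to SNHG8, had 143.4 counts in PCIF1 KO1, 194.0 in PCIF1 KO2 and 130.5 in control. The strand setting of the counting is not given. Whether reads of a host and of a gene antisense to it were kept apart where their counted exons overlap is therefore not known.

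**Figure D4:**
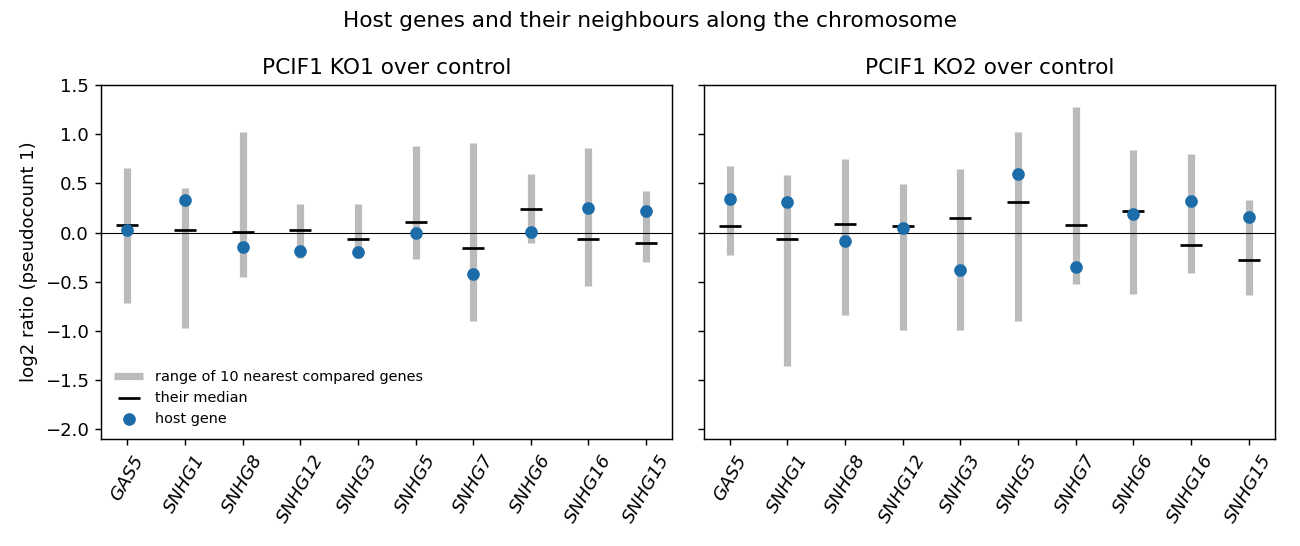
The log2 ratio of each host gene (points) with the range (grey bars) and median (black marks) of its 10 nearest compared genes, for PCIF1 KO1 over control and PCIF1 KO2 over control. SNHG15 and SNHG1 lay above 9 of their 10 neighbours in both panels. SNHG7 lay above 2 of its 10 in both, and SNHG3 above 1 of 10 in PCIF1 KO1 and 2 of 10 in PCIF1 KO2.

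Of 18 other noncoding snoRNA hosts, 17 were compared, with medians of -0.02 in PCIF1 KO1 and 0.03 in PCIF1 KO2; 8 were above control in PCIF1 KO1 and 11 in PCIF1 KO2. SNHG14, the long host of the SNORD115 and SNORD116 clusters, was the furthest off at 468.8 counts in PCIF1 KO1, 567.5 in PCIF1 KO2 and 255.6 in control, log2 ratios of 0.87 in PCIF1 KO1 and 1.15 in PCIF1 KO2. SNHG9, the host of SNORA78, had 953.9 in PCIF1 KO1, 893.7 in PCIF1 KO2 and 641.8 in control. ZFAS1, the host of SNORD12 RNAs, had 3283.4 in PCIF1 KO1, 3521.0 in PCIF1 KO2 and 3476.7 in control, and SNHG4 had 526.2 in PCIF1 KO1, 517.8 in PCIF1 KO2 and 644.0 in control. MEG8, an imprinted host, had at most 0.33 counts. SNHG14 was the 1 of these 17 past 1.5-fold, higher in each clone, against 6.93% of all compared genes higher in PCIF1 KO1 and 9.76% in PCIF1 KO2, which is near those shares; the difference from the 10 hosts was not tested. Of 273 protein-coding genes with a snoRNA annotated inside them, 218 were compared, with medians of -0.01 in PCIF1 KO1 and -0.05 in PCIF1 KO2.

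Proteins that act on host transcripts and their snoRNAs were read from lists. Of 15 genes of the snoRNA-binding core and its assembly, 1 was at least 1.5-fold higher and 1 lower in PCIF1 KO1, against 6.93% and 4.94% of all compared genes, and 3 were higher and 1 lower in PCIF1 KO2, against 9.76% and 7.23%, with medians of 0.01 in PCIF1 KO1 and 0.19 in PCIF1 KO2. NOP58 and NOP56, the paired core proteins of box C/D particles, went opposite ways: NOP58 had 2145.7 counts in PCIF1 KO1, 2075.6 in PCIF1 KO2 and 1165.9 in control and NOP56 had 1193.3 in PCIF1 KO1, 1220.5 in PCIF1 KO2 and 1916.1 in control. NOP58 lies on chromosome 2 and NOP56 on chromosome 20. The genes around them were not read here, and whether their chromosome segments shifted as a whole was not tested. NOP10, a core protein of box H/ACA particles, had 130.8 in PCIF1 KO1, 179.3 in PCIF1 KO2 and 94.4 in control.

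Of 20 genes of nonsense-mediated decay, none was 1.5-fold off in either clone, against 11.9% of all compared genes in PCIF1 KO1 and, in PCIF1 KO2, 9.76% higher and 7.23% lower. Below control were 15 in PCIF1 KO1 and 17 in PCIF1 KO2, beside 8702 in PCIF1 KO1 and 8645 in PCIF1 KO2 of all 17149, with medians of -0.04 in PCIF1 KO1 and -0.13 in PCIF1 KO2. UPF1, the helicase at the centre of that pathway, had 502.9 counts in PCIF1 KO1, 504.7 in PCIF1 KO2 and 618.3 in control, and the exon junction gene MAGOHB had 308.4 in PCIF1 KO1, 289.6 in PCIF1 KO2 and 384.4 in control. At the other end of the list, SMG6 had log2 ratios of 0.25 in PCIF1 KO1 and 0.20 in PCIF1 KO2. CASC3 had 0.12 in PCIF1 KO1 and 0.26 in PCIF1 KO2. Of 8 genes of intron release and snoRNA trimming none was 1.5-fold off either, beside those same shares, with medians of 0.14 in PCIF1 KO1 and 0.19 in PCIF1 KO2. In each clone 5 were above control and 3 below. MTREX, the helicase of the nuclear exosome, had 659.7 counts in PCIF1 KO1, 625.0 in PCIF1 KO2 and 513.2 in control and TOE1, a nuclear deadenylase, had 778.3 in PCIF1 KO1, 821.5 in PCIF1 KO2 and 631.6 in control. The lowest log2 ratios were those of EXOSC10, at -0.08 in PCIF1 KO1 and -0.10 in PCIF1 KO2, and AQR, at -0.03 in PCIF1 KO1 and -0.09 in PCIF1 KO2.

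Genes with ratios like those of the 3 hosts farthest from control were looked up. By the Euclidean distance over the log2 ratios of both clones, among 10128 protein-coding genes averaging 50 counts or more, the nearest to SNHG5 was ACHE, at 0.0026, with 61 genes within 0.1. For SNHG7 it was TPCN1, with 197 genes within 0.1, and for SNHG1 it was PEX3, with 317.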

How the data were processed

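The authors deposited 1 table whose values are a signal: per the file header, the mean over a group's replicates of normalized counts divided by gene length in kb. Per the submitters' processing notes, cutadapt 1.14, Bowtie 1.2.2, featureCounts and DESeq2 were used with hg38, dm3 and GRCh38.p12, in no stated role. What feature was counted, on which strand, and whether the spike-in set the scaling is not stated in the labels. Rows have 5 cells under 6 header names; cell 2 equals the merged exon length of GENCODE release 44 for 64.4% of 57754 matched identifiers and lies within 5% of it for 83.1%, so the symbol cell was taken as missing and cells 3 to 5 as control, PCIF1 KO1 and PCIF1 KO2.

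Values were multiplied by length, 1 was added, and log2 ratios were taken. No test was possible with 1 mean per group; precision is limited by an unknown depth. Differences are counted past 1.5-fold and 2-fold beside the same share over all compared genes. Members and lists were chosen with earlier results of these data known. Named genes are the hosts, PCIF1, counted snoRNAs, nearest neighbours and the extremes of each list; not every gene the rule takes is printed. Other genes (ZFAS1, MEG8) were chosen after their values were seen. Alternatives were pseudocounts of 0.5 and 5, median-of-ratios and quantile scaling, no floor, a floor of 50 and values per kb. The ratio code was tested on simulated data. Python 3.11.15, numpy 2.4.6 and pandas 2.3.3 were used.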

Additional observations from a re-analysis of the deposited data

How the results depend on the processing

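Over 7 alternatives the median log2 ratio of the 10 hosts stayed between 0.00096 and 0.0053 in PCIF1 KO1 over control, between 0.16 and 0.18 in PCIF1 KO2 over control and between 0.070 and 0.11 in PCIF1 KO2 over PCIF1 KO1. SNHG5 in PCIF1 KO2 over control ran from 0.59 to 0.60, just past the 1.5-fold mark of 0.585. Under quantile normalization 2 hosts were at least 1.5-fold off in PCIF1 KO2 over control, since GAS5 stood at 0.61 there, against 0.35 as reported; the cause was not tested. GAS5 was likewise at 0.61 in PCIF1 KO2 over PCIF1 KO1 under that setting, where SNHG5, at 0.58, was just short of the mark. Without SNHG5, an alternative added after the data were seen, 0 hosts were past 1.5-fold in PCIF1 KO2 over control and 0 in PCIF1 KO2 over PCIF1 KO1. SNHG5 in PCIF1 KO1, at -0.01, reached 0.02 under 1 alternative, and no other host ratio changed sign under the 7. A value counted as moved when it shifted by more than the SD of the log2 ratio between the clones over genes of like count, 0.22 for the most counted genes, which also holds differences between the clones. No paired analysis was possible because the table holds 1 mean per group, and leaving out single replicates was not run for the same reason.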

Other observations

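Genes that share the TOP start with several hosts were read beside them. Of 80 cytosolic ribosomal protein genes, all compared, 1 was at least 1.5-fold higher and 0 lower in PCIF1 KO1, against 6.93% and 4.94% of all compared genes, and 0 were past that mark in PCIF1 KO2, against 9.76% higher and 7.23% lower, with medians of -0.02 in PCIF1 KO1 and -0.00 in PCIF1 KO2. RPS26 had 2493.3 counts in PCIF1 KO1, 2306.2 in PCIF1 KO2 and 1585.1 in control, RPS25 had 1072.6 in PCIF1 KO1, 1278.8 in PCIF1 KO2 and 858.2 in control, and RPL37 had 4591.4 in PCIF1 KO1, 4410.6 in PCIF1 KO2 and 5825.5 in control. Of 16 genes that regulate TOP transcripts, none was 1.5-fold off, beside those same shares, with medians of -0.05 in PCIF1 KO1 and -0.08 in PCIF1 KO2. TSC2, an inhibitor of the mTOR pathway, had 369.0 counts in PCIF1 KO1, 354.6 in PCIF1 KO2 and 474.0 in control, and EIF4EBP1, a translation repressor that the pathway controls, had 239.1 in PCIF1 KO1, 270.0 in PCIF1 KO2 and 194.7 in control.

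The RefSeq promoter of SNHG5, the host furthest from control, runs from 250 bases before to 50 bases after its RefSeq start (GRCh38.p14, chr6:85678684-85678983, minus strand). Among 4 motifs searched on both strands (the letters TATAAA, the E-box CACGTG, the CCAAT box and the pyrimidine stretch CTTTC), it held CCAAT, in capitals, 80 bases before the start. Other spellings of a TATA box were not searched.
SNHG5 promoter: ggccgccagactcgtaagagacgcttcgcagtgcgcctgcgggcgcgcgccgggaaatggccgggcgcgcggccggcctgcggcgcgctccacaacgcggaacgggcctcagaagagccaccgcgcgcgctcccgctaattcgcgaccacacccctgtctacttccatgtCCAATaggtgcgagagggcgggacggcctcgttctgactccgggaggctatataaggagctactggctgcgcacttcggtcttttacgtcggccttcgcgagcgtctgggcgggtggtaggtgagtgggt
CCAAT was present in 2 of the 8 RefSeq host promoters, those of GAS5 and SNHG5, and in 34.6% of 35116 promoters of the same length. The GAS5 promoter is that of its RefSeq start, at an offset of -1056 bases along the strand from the GENCODE start, whose surroundings were not searched. TATAAA was found in 2 of 8 and 11.5%, CACGTG in 1 of 8 and 7.26%, and CTTTC in 3 of 8 and 54.7%.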
